A study of Mus musculus with 4 samples.

Results

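The circadian clock genes described here are the 10 genes Per1, Per2, Per3, Cry1, Cry2, Arntl, Clock, Nr1d1, Nr1d2 and Dbp, taken from the arrays by gene name, control spots left out. They had 25 of the 56605 probes on each array, and all 10 were among the 19325 genes tested. The arrays measured total RNA from the whole colon of C57BL/6 mice on day 5 of dextran sulphate sodium (DSS), which is taken in drinking water and injures the colon epithelium. The 2 control arrays came from Junb fl/fl mice, and the 2 mutant arrays from Junb fl/fl mice carrying Cd4-Cre. Both genotypes thus shared the floxed Junb alleles, which encode an AP-1 transcription factor, and the DSS. Cd4-Cre removes floxed sequence mainly in the T lineage, so most cells of the mutant colon should keep Junb. Age, sex and the time of day at collection are not among the labels used here, and there were no mice without DSS.

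The clock is a daily feedback loop that runs in nearly every cell. Arntl (BMAL1) and Clock form an activator that binds E-boxes and switches on the Per and Cry genes, whose proteins then repress it, and the genes for Nr1d1 and Nr1d2 (REV-ERB alpha and beta), which repress Arntl. In mouse tissues that cycle, Nr1d1, Dbp and the Per genes therefore crest at a different time of day from Arntl and Npas2, and their balance reads as a time stamp of the tissue. Per1 is also switched on quickly by glucocorticoids, cyclic AMP and other stimuli.

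The comparison asked whether the clock genes of mutant and control colons stood in the same relation to each other. Values are log2 processed signals with the array's own 75th percentile subtracted, and differences are mutant minus control with the moderated standard error from limma, n = 2 arrays each. They compare 1 gene between arrays and say nothing of the level of a gene against another. No clock gene passed the adjusted test, and neither did any of the 19325 genes (0% at a limma adjusted p under 0.05). Of these, 1796 had an unadjusted p under 0.05, and 46, none a clock gene, passed the adjusted test when the replicate number was a block. With 2 against 2 arrays an exact two-sided permutation test cannot go below p = 0.333. In bulk tissue RNA, fewer cells of a type and less RNA per cell cannot be told apart.

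The stretch before the start site is shown for Per1, Per3, Cry1 and Nr1d1 because letters matching motifs of the loop occur there, each in a different make-up. Capitals mark, on either strand, the E-box CACGTG, the E-prime box CACGTT, the nuclear receptor core AGGTCA bound by REV-ERB and ROR proteins, the D-box TTATGTAA or TTACGTAA bound by Dbp and its relatives, and TGACG, the core of the cyclic AMP element. No motif contains another. Sequences are from RefSeq on GRCm38.p6, read 5′ to 3′ along the gene and ending just before its start.
Per1 (chr11:69098699-69098948, plus strand): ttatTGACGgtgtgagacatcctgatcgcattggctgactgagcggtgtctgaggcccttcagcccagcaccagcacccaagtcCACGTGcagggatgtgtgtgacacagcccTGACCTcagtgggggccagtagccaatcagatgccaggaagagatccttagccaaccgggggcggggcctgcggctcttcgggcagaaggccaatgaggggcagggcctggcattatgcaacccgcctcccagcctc
Per3 (chr4:151044666-151044915, minus strand): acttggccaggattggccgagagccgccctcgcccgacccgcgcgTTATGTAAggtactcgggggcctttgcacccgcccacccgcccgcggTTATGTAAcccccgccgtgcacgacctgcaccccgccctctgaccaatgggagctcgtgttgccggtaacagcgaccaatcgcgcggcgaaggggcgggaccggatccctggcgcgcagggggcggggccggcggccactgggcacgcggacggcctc
Cry1 (chr10:85185055-85185304, minus strand): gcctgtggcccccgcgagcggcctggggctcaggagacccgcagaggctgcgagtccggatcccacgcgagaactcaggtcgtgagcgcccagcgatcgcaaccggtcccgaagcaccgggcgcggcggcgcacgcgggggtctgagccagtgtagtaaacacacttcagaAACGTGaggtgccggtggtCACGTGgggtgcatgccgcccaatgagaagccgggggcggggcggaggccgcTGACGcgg
Nr1d1 (chr11:98775378-98775627, minus strand): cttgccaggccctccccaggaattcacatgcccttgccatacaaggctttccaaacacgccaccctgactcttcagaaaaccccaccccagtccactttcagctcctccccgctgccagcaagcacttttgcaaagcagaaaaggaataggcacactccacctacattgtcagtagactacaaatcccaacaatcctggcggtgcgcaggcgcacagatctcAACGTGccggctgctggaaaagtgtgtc

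RefSeq windows of 300 bases, from 250 before to 50 after a start, were at hand for 9 of the 10 genes, 13 windows in all. Per1 had an E-box 166 bases before the start shown above, an AGGTCA core at 137 and a TGACG at 246. At another start of Per1, the only match was a TGACG 132 bases before it. Cry1 carried both an E-box, 60 bases before the start, and an E-prime box at 79, with a TGACG at 8. Per3 had 2 D-boxes, at 205 and 158, and no E-box in this window. Nr1d1 had an E-prime box 28 bases before its start, and Cry2 had one at 166 with a TGACG at 209. A core AGGTCA lay 77 bases before the start of Nr1d2 and 119 before a start of Clock. The window of Dbp held none of these motifs. Of all 32851 windows, 7.15% held an E-box, 4.68% an E-prime box, 16.3% an AGGTCA, 1.06% a D-box and 20.8% a TGACG. These are matches of letters and were not tested for binding.

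For Arntl, the target of the REV-ERB repressors, a core AGGTCA fell 31 bases after a start, in the first bases transcribed. It is shown because Arntl and its repressors are set against each other below.
Arntl (chr7:113207530-113207559, plus strand): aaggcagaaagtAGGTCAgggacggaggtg

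In the activator arm, Arntl was lower in both mutants. Its brightest probe (chr7:120456978-120457037, mm9) gave log2 signals of 0.54 and 0.29 on the control arrays and -0.11 and -0.03 on the mutant arrays, from deposited intensities of 478.5, 401.4, 289 and 262.1. The genotypes did not overlap, and the mutant level was 0.716 times the control level (log2 difference -0.48 ± 0.15, unadjusted p = 0.0204, limma adjusted p = 0.450). All 3 Arntl probes were well above background on every array and put both mutants below both controls, with differences between -0.70 and -0.47. The difference was -0.64 in the replicate 1 pair and -0.32 in the replicate 2 pair. Without control 1, mutant 1 or mutant 2, the difference was -0.36, -0.45 and -0.52, and its unadjusted p was no longer under 0.05. In each of those fits a genotype had 1 array, which is assumed to vary like the other genotype's.

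Clock, the partner of Arntl, gave 1.01 and 0.84 on the control arrays and 0.94 and 0.68 on the mutant arrays. The genotypes overlapped, and the difference of -0.11 ± 0.15 was within the spread of the arrays (adjusted p = 0.829). Its 3 measured probes did not share a sign, at -0.11, 0.18 and -0.08. Npas2, which can take the place of Clock, gave -3.08 and -3.46 on the control arrays against -3.73 and -3.81 on the mutant arrays, a difference of -0.50 ± 0.30 that did not pass the test (adjusted p = 0.639).

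Among the period genes, which encode the repressors that accumulate through the day, Per1 was the only clock gene with a higher mean in the mutants. Its measured probe (chr11:68923364-68923423, mm9) gave 1.68 and 1.97 on the control arrays and 2.39 and 2.35 on the mutant arrays, with intensities of 1061, 1283, 1634 and 1369. The mutant arrays lay above both controls, at 1.46-fold the control level (log2 difference 0.55 ± 0.14, unadjusted p = 0.00953, adjusted p = 0.418). Of all genes tested, 2.17% had a smaller p. The difference was 0.71 in the replicate 1 pair and 0.39 in the replicate 2 pair, and the unadjusted p stayed under 0.05 in each of 11 alternative settings, over differences of 0.41 to 0.69. The other Per1 probe stayed near background on all 4 arrays.

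Per2 stood at -0.26 and 0.00 on the control arrays and -0.08 and -0.30 on the mutant arrays. The genotypes overlapped, and the difference was -0.06 ± 0.17 (adjusted p = 0.927), positive in the replicate 1 pair (0.18) and negative in the replicate 2 pair (-0.31). Per3 gave -0.90 and -1.36 on the control arrays and -1.38 and -1.51 on the mutant arrays, with both mutants just below the lower control. Its difference of -0.32 ± 0.21 did not pass the test (adjusted p = 0.666), and it was -0.09 without control 1 and -0.55 without control 2. The second Per3 probe gave -0.28 and overlapped between genotypes. The 3 period genes therefore did not share a direction, with Per1 higher and Per3 lower by its mean.

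The cryptochromes, which close the loop by silencing Clock and Arntl, were measured at unlike precision. Cry2 gave 1.85 and 1.92 on the control arrays and 1.34 and 1.80 on the mutant arrays (difference -0.32 ± 0.18, unadjusted p = 0.140, adjusted p = 0.628). Its other probes gave -0.53 and -0.51, and all 3 put both mutants below both controls. At the brightest probe the difference rested mostly on mutant 1, being -0.08 without that array and -0.55 without mutant 2. Cry1 was dim, at -3.37 and -3.14 on the control arrays and -3.57 and -3.29 on the mutant arrays, and the genotypes overlapped. Its difference of -0.17 ± 0.28 (adjusted p = 0.873) became 0.01 under another background correction.

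The REV-ERB genes, direct targets of the activator and repressors of Arntl, had lower means in the mutants, as Arntl did. Nr1d1 gave 0.61 and 0.07 on the control arrays and -0.03 and 0.01 on the mutant arrays, both mutants below both controls. Control 1 stood apart: the difference was -0.35 ± 0.21 with it (unadjusted p = 0.151, adjusted p = 0.636) and -0.08 without it, and -0.63 without control 2. Nr1d2 gave 0.65 and 0.30 on the control arrays and 0.18 and 0.37 on the mutant arrays. The genotypes overlapped (difference -0.20 ± 0.17, adjusted p = 0.722), with -0.47 in the replicate 1 pair and 0.06 in the replicate 2 pair. It was -0.03 without control 1 and -0.38 without control 2.

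Dbp, a D-box activator driven by Arntl and Clock and a strongly cycling transcript in many tissues, followed the replicate number more closely than the genotype. Its brighter probe (chr7:52965265-52965324, mm9) gave 3.25 and 2.53 on the control arrays and 3.11 and 2.39 on the mutant arrays, with intensities of 3140, 1895, 2689 and 1410. Both replicate 1 arrays were above both replicate 2 arrays. The genotype difference was -0.14 ± 0.33 (adjusted p = 0.917), and it was -0.14 and -0.13 within the pairs. In a fit with the replicate number as a term, replicate 2 differed from replicate 1 by -0.72 ± 0.09 (unadjusted p = 5e-04, limma adjusted p = 0.0580). That missed the threshold, which 0.766% of genes passed in this comparison. Dbp was the only clock gene with an unadjusted p under 0.05 there, beside 15.8% of all genes. The second Dbp probe gave -0.65. Clock also had both replicate 2 arrays below both replicate 1 arrays, as 17.5% of all genes did, and Cry1 had them above, as 21.6% did, with smaller differences of -0.22 ± 0.11 and 0.25 ± 0.27. This comparison was added after the data were seen.

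**Figure D1:**
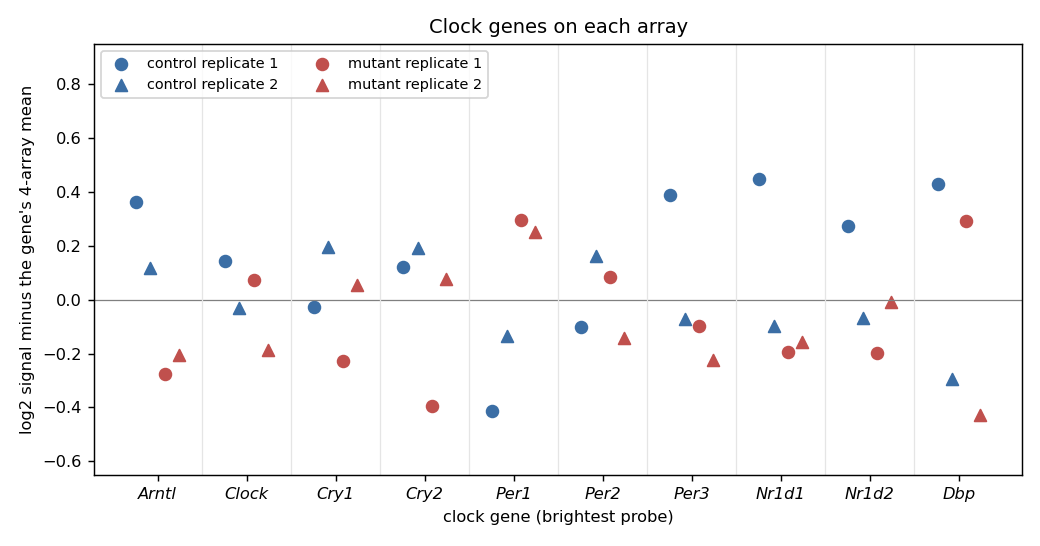
Each point is the log2 signal of a clock gene's brightest probe on 1 array minus that gene's mean over the 4 arrays (vertical axis, log2 units), with controls in blue, mutants in red, replicate 1 as circles and replicate 2 as triangles. Arntl, Per3, Cry2 and Nr1d1 separate by colour with mutants low and Per1 with mutants high, while Dbp and Clock separate by shape with circles high and Cry1 with circles low.

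Counted together, 9 of the 10 clock genes had a lower mean in the mutants, where 46.6% of all genes did, and the median difference was -0.19 against 0.02 over all genes. The unadjusted p was under 0.05 for 2 of the 10, Per1 and Arntl, beside 9.29% of all genes tested. Both mutants lay below both controls for 4 (Per3, Cry2, Arntl and Nr1d1), beside 17.6% of all genes, and above them for 1 (Per1), beside 25.7%. The sign was the same in both replicate pairs for 8 of 10, beside 65.4% of all genes. These counts describe genes chosen with earlier results known and carry no test.

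Of the 25 probes, 20 were well above background on all 4 arrays, 1 of Cry1 on 2 arrays and 4 on none. The 4 dark probes belong to Per1, Per2, Per3 and Clock. Probes of 1 gene share its transcripts and are not replicates.

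**Figure D2:**
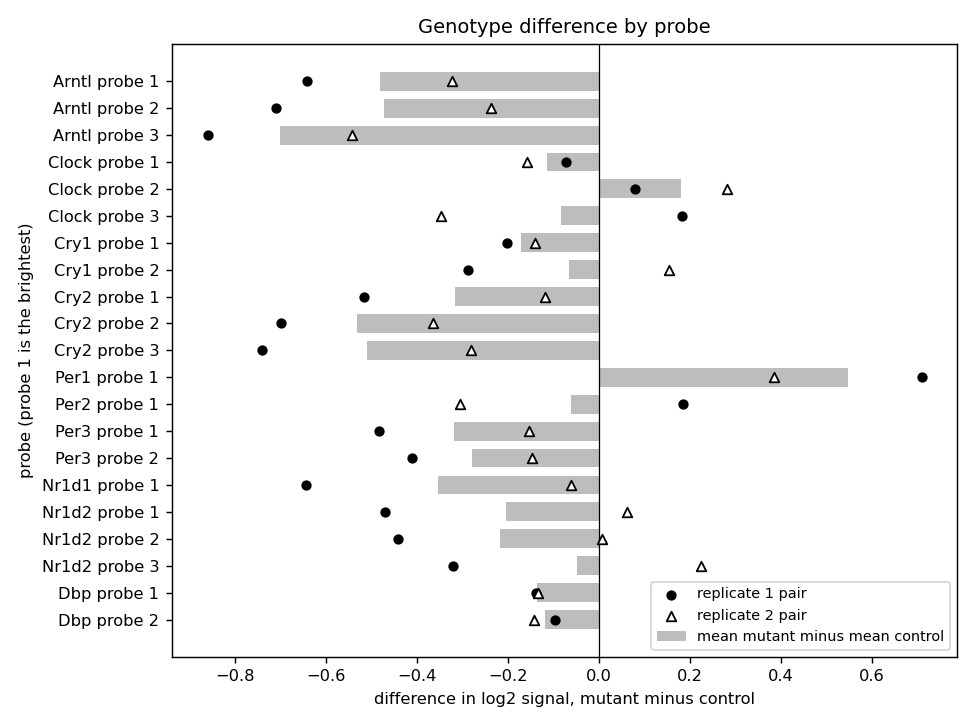
Bars give the mean mutant minus mean control log2 signal (horizontal axis) of each of the 21 clock gene probes well above background on at least 2 arrays, with circles for the replicate 1 pair and triangles for the replicate 2 pair. All bars of Arntl and Cry2 and both of their pairs lie left of 0, Per1 lies right of it, and the pairs of Per2, Nr1d2 and a dimmer probe each of Clock and Cry1 straddle it.

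The opposed arms were compared on each array. The mean of Per1, Per2, Per3, Nr1d1, Nr1d2 and Dbp minus the mean of Arntl, Clock and Npas2, centred over the arrays, was -0.15 and -0.13 on the control arrays and 0.17 and 0.11 on the mutant arrays. Both mutants were above both controls, by 0.28 log2 units, and by 0.31 and 0.24 in the replicate pairs. The pooled SD between arrays was 0.03, which rests on 2 arrays per genotype and is smaller than that of either arm. Npas2, at log2 signals of -3.08 to -3.81, is dim and limited by background, yet weighs as much as Arntl. Clock differed by -0.11 and overlapped between the genotypes. The genes were chosen with earlier results known, and the contrast carries no test. The mean of Arntl, Clock and Npas2 differed by -0.37 (pooled SD 0.14), with both mutants below both controls. That of the 6 genes opposite differed by -0.09 (pooled SD 0.15) and overlapped between the genotypes. Without Per1, an alternative added after the data were seen, the contrast was 0.15 with a pooled SD of 0.06. With Per1 kept, the contrast was 0.12 after normexp background correction.

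The single pairs of genes did not move alike. Per1 minus Arntl differed by 1.03 between genotypes, 1.35 and 0.71 in the replicate pairs. Per2 minus Arntl differed by 0.42, with 0.83 in the replicate 1 pair and 0.02 in the replicate 2 pair. Dbp minus Arntl gave 0.35 with a pooled SD of 0.46, Nr1d2 minus Arntl 0.28 and Per3 minus Arntl 0.16. Nr1d1 minus Arntl, repressor against target, differed by 0.13 with a pooled SD of 0.15, and by 0.00 and 0.26 in the pairs. Arntl and Nr1d1 both had their lowest values in the mutants. All contrasts with Arntl share its values and are not independent.

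Of 10 other transcription factors of the clock loops, 8 were tested and none passed the adjusted test. Their median difference was -0.11, with 6 lower and 2 higher by their means, where 46.6% of all genes were lower. Both mutants lay below both controls for 4, beside 17.6% of all genes. Rora, which activates Arntl through the site that the REV-ERBs block, gave 0.70 and 0.74 on the control arrays and 0.21 and 0.25 on the mutant arrays. Its groups stood well apart (difference -0.49 ± 0.12, unadjusted p = 0.00861, adjusted p = 0.418). Bhlhe40, which represses through E-boxes, differed by -0.20 ± 0.11 (adjusted p = 0.624). Hlf, a D-box activator like Dbp, differed by -0.56 ± 0.23 (adjusted p = 0.550), while Tef, the third of that family, differed by -0.01 ± 0.12. Nfil3, which represses through the D-box, was chosen for its replicate difference after its values were seen. It gave 1.11 and 1.84 on the control arrays and 1.50 and 2.16 on the mutant arrays, and replicate 2 was higher by 0.70 ± 0.10 (limma adjusted p = 0.0729). Dbp and Nfil3 thus lay opposite each other by replicate number. The other D-box factors differed little in that comparison, Tef by 0.02 ± 0.12 and Hlf by -0.04 ± 0.23.

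The genes that phosphorylate or degrade clock proteins showed no common direction. Of 10 tested, 6 were higher and 4 lower by their means, the median was 0.03 and none had an unadjusted p under 0.05. Btrc, a ubiquitin ligase subunit that recognises PER proteins, had the smallest (difference -0.39 ± 0.18, unadjusted p = 0.0758, adjusted p = 0.574). Cul1, the ligase scaffold, differed by 0.46 ± 0.34 and Csnk1e, a kinase of PER proteins, by -0.16 ± 0.13. Of 12 genes that cycle in many tissues, 6 were higher and 6 lower with a median of 0.01. Tspan4 (0.41 ± 0.23), Por (-0.21 ± 0.18) and Nampt (0.11 ± 0.11) had the smallest p-values of these, all at adjusted p of 0.623 or more.

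Because Per1 also answers to glucocorticoids and acute stimuli, such genes were read beside it. Of 8 glucocorticoid targets, Per1 included, 3 were higher and 5 lower in the mutants, with a median of -0.20. Nfkbia, the NF-kappaB inhibitor, gave 4.18 and 4.21 on the control arrays and 4.48 and 4.74 on the mutant arrays (difference 0.41 ± 0.13, unadjusted p = 0.0212, adjusted p = 0.457). Klf9 differed by -0.27 ± 0.11 (adjusted p = 0.558). By replicate number, all 8 were higher in replicate 2, beside 55.7% of all genes, with a median of 0.43. Fibroblast markers did likewise, 6 of 6 with a median of 0.43. Among the glucocorticoid targets Per1 was one of the least, at 0.12 ± 0.12. Zbtb16, named because it passed that test, gave -0.98 and 0.28 on the control arrays and -1.56 and -0.13 on the mutant arrays (1.35 ± 0.13, limma adjusted p = 0.0348).

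The 7 immediate early genes, which respond quickly to stimuli and handling, split 3 higher and 4 lower with a median of -0.09. Fosb gave -0.79 and -1.84 on the control arrays and -2.84 and -2.29 on the mutant arrays (difference -1.25 ± 0.41, unadjusted p = 0.0274, adjusted p = 0.478). Atf3 differed by -0.41 ± 0.16 and Ier2 by 0.20 ± 0.12, neither past the test. Fos gave 3.56 and 3.54 on the control arrays and 3.48 and 3.45 on the mutant arrays (-0.09 ± 0.10).

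**Figure D3:**
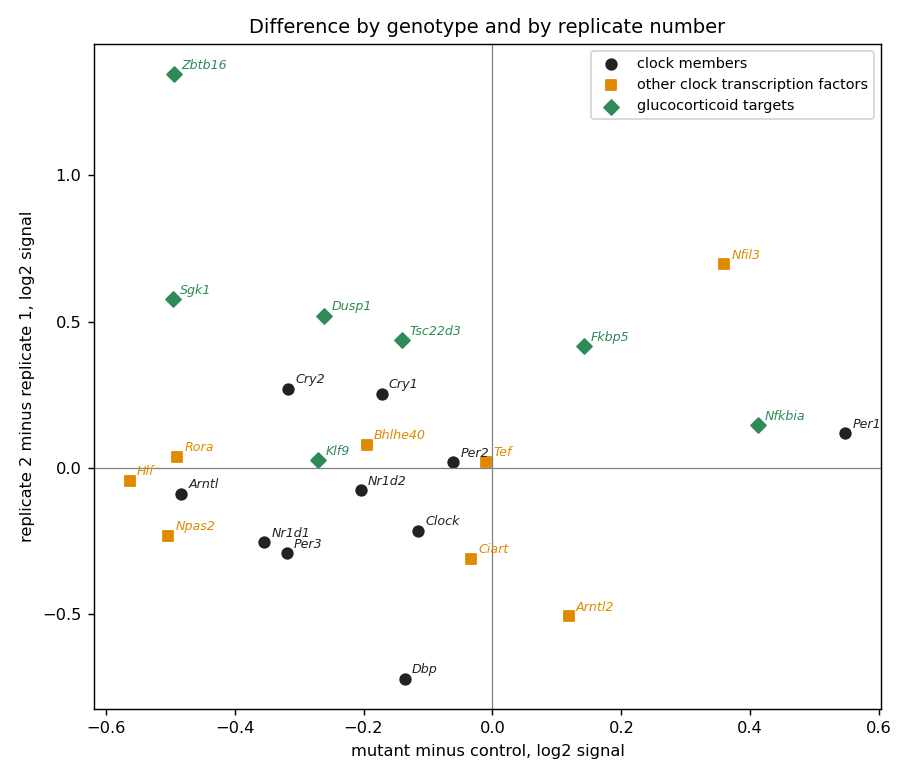
Each point is a gene, placed by its mutant minus control difference (horizontal axis, log2 signal) and its replicate 2 minus replicate 1 difference (vertical axis, log2 signal), for the 10 clock genes (black circles), 8 other clock transcription factors (orange squares) and 7 glucocorticoid targets other than Per1 (green diamonds). Per1 lies far right near 0 in height, Dbp lies lowest with little genotype difference, and the green points all lie above 0.

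Replicate number ran with the sex-linked transcripts in both genotypes. Xist, from the inactive X chromosome, gave -0.55 and -0.77 on the replicate 1 arrays and -6.13 and -6.43 on the replicate 2 arrays. The Y-linked gene Eif2s3y gave -6.08 and -6.20 against 0.20 and -0.11. Y-linked Uty and Ddx3y were likewise higher in replicate 2, while the Kdm5d probe differed little, at -2.52 and -2.44 against -2.33 and -2.25. The replicate differences of Dbp, Clock, Cry1, Nfil3 and the glucocorticoid targets therefore cannot be told apart from sex. Each genotype had 1 array of each kind, from different mice, so the genotype differences were taken across both.

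The whole colon holds many cell types, and markers of several of them differed between the genotypes by their means. Smooth muscle markers were lower in the mutants for 8 of 8 genes, with mean log2 signals of 4.63 to 4.75 in the controls and 4.10 to 4.12 in the mutants and a median difference of -0.60. Adipocyte markers averaged 0.59 to 0.76 against -0.65 to -0.16 (4 of 5 lower, median -0.74), and T cell markers -0.94 to -0.73 against -1.49 to -1.48 (6 of 6 lower, median -0.44). Enteric neuron and glia markers averaged -1.09 to -0.95 against -1.48 to -1.32 (6 of 6 lower, median -0.43). Colon epithelium ranged from 6.11 to 6.29 in the controls and 6.20 to 6.30 in the mutants (6 of 10 higher, median 0.09). For those 6 both mutants lay above both controls, as they did for 25.7% of all genes. Fibroblast markers averaged 3.23 to 3.86 and 3.19 to 3.39 (6 of 6 lower, median -0.19), and leukocyte markers 2.96 to 3.08 and 2.90 to 3.07 (5 of 6 lower, median -0.06). Neutrophil markers averaged 0.74 and 2.0 on the control arrays and 2.04 and 3.21 on the mutant arrays, with 3 of 5 higher in the mutants. These 3, S100a8, S100a9 and Retnlg, were also higher in replicate 2 by their means, while Ly6g (-0.14 by genotype, -0.60 by replicate number) and Csf3r (-0.01 and -0.15) were lower in both respects. With the replicate number as a block, S100a8 (adjusted p = 0.0409, limma), S100a9 (0.0237) and the adipocyte marker Cfd (0.0416) passed the adjusted test, and no other marker of these cell types did. Among the clock genes and other clock factors, both mutants lay below both controls for Arntl, Cry2, Per3, Nr1d1, Rora, Hlf, Npas2 and Bhlhe40. The same held for 17.6% of all genes. Most muscle, fat, nerve and T cell markers had lower means in the mutants too. Fibroblast and leukocyte markers were also mostly lower, by smaller medians. Per1 was higher, as were 3 of 5 neutrophil and 6 of 10 epithelial markers, beside 10309 of all 19325 genes. The part of these cell types in the clock gene differences was not tested. Mpo and Plin1 were not well above background on 2 arrays, and no other marker was left out.

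**Figure D4:**
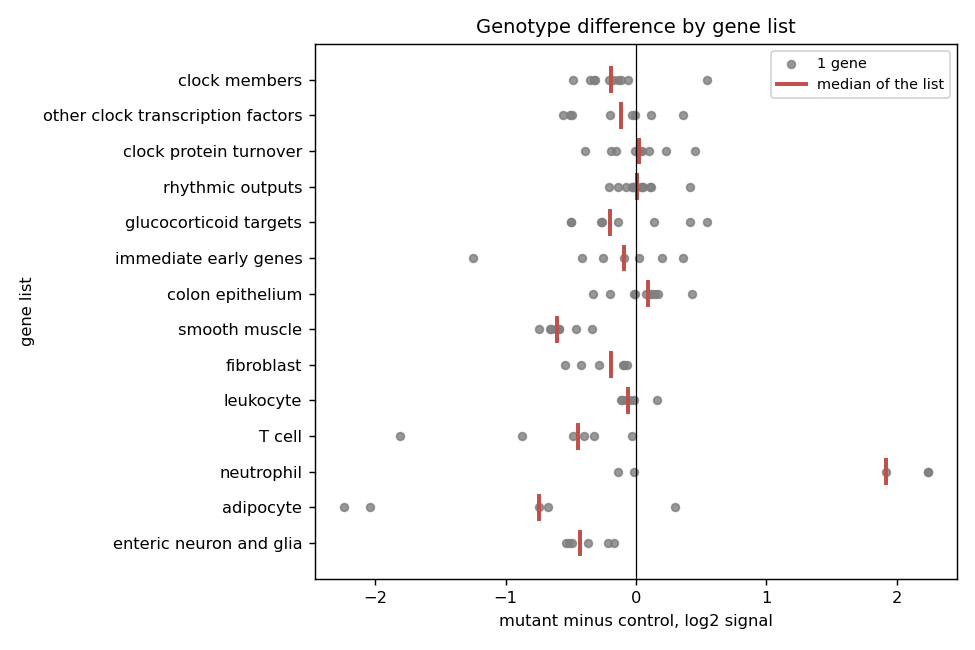
Grey points are genes placed by mutant minus control log2 signal (horizontal axis) in each gene list, and red bars are list medians. The clock genes (median -0.19) and other clock factors (-0.11) lie left of 0, less far than smooth muscle (-0.60) and adipocyte (-0.74) markers, and turnover genes and cycling outputs centre near 0.

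Genes were ranked by how near their centred log2 values on the 4 arrays came to those of Dbp and Arntl. Of the 5 nearest to Dbp, at root mean square distances of 0.0091 to 0.0285, only C030005K06Rik has a current symbol, and 67 genes lay within 0.1. Nearest to the inverted Dbp profile were 6530402F18Rik, Mzb1, Kdsr and Ino80d, at 0.0271 to 0.0434. Arntl had 308 genes within 0.1, Mapk10, Apobec1 and Zfp862-ps among the 5 nearest (0.0176 to 0.0276), and Sdf2l1 among the nearest to its inverse. With 4 arrays this likeness is a description only.

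The arrays were alike in quality. Between 30625 and 31780 of 62976 spots were well above background, none was saturated, and the percentile used for scaling lay at intensities between 268.5 and 330. All 4 were on 1 slide and in 1 scan, and correlated at 0.976 to 0.984. Junb differed by 0.15 ± 0.11 in whole colon (adjusted p = 0.691), where cells without Cre keep it, so it is no check of the deletion. Their number limits the precision of every value.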

How the data were processed

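Total RNA of whole mouse colon was labelled with Cy3 and hybridised to 4 Agilent arrays, 2 per genotype, grouped by title and genotype label. The deposited intensity values are background-corrected processed signals of each spot per the file headers. The submitters' processing notes give Agilent Feature Extraction 11.5.1.1 as the software. No normalization between arrays is recorded there. Other deposited columns, per the file headers, hold gene names, mm9 positions and flags.

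Spots flagged as outliers were dropped and spots of a probe averaged (11 probes had no clean spot on every array). Values are log2 signal minus the array's 75th percentile. Probes well above background on at least 2 arrays were kept, and the brightest represented its gene. The genotype fit used limma 3.58.1 under R 4.3.3 (eBayes with trend, two-sided, prior degrees of freedom 3.12) and adjusted by Benjamini-Hochberg over 19325 genes. The fit was tested on simulated data.

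The clock genes and lists were chosen with earlier results of these data known, and 1 listed gene is not reported here. Named are all clock genes, up to 3 genes of smallest p per clock, output, glucocorticoid and immediate early list, and the 5 profiles nearest to Dbp and Arntl, direct or inverted, where they have a symbol. Nfil3, Zbtb16, Tef, Fos, Npas2 and the cell type markers named fall outside that rule. A probe's gene is the array's own name. Whether probes are exonic was not analysed here. Alternatives changed the background correction, normalization, filter, probe rule, trend, block and arrays.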

Additional observations from a re-analysis of the deposited data

Results flagged for a closer look

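Per2 and Nr1d2 differed between genotypes in opposite directions in the replicate pairs, which also differ in sex. The other 8 of the 10 clock genes had the same sign in both pairs, beside 65.4% of all genes. Per2 was 0.18 (log2) higher in the mutant of the replicate 1 pair and differed by -0.31 in the replicate 2 pair. Nr1d2 differed by -0.47 in the replicate 1 pair and by 0.062 in the replicate 2 pair. Each pair is 1 array against 1, and the difference between pairs was not tested.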

How the results depend on the processing

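With the replicate number as a block, 46 of 19325 genes passed the adjusted test (35 higher in the mutants) against 0 without it, and no clock gene's call changed; Per1 then had an adjusted p of 0.150 and Arntl of 0.193. Replicate 2 minus replicate 1 in the controls correlated with the same in the mutants at r = 0.239 across genes, which with 2 pairs does not settle a pairing. Clock genes with an unadjusted p under 0.05 numbered 1 to 3 when single arrays were left out (1 without control 1 or mutant 1, 3 without control 2), and 3, with Cry2, when probes were averaged. Per1 kept its direction and side of 0.05 in all 11 alternatives, and Arntl its direction in all 11 and its side in 8. Without single arrays, Dbp ranged from -0.50 to 0.23, Per2 from -0.192 to 0.0708 and Clock from -0.244 to 0.0144. Cry1 was 0.0141 with normexp. The opposed-arm contrast of 0.28 was 0.12 with normexp, which shrinks dim genes, 0.24 with quantile normalization, 0.39 with Arntl alone opposite and 0.15 without Per1. Without the filter on dim probes the median of all genes was -0.12. Cry1 and Npas2 are dim and limited by background.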
